A study of Rattus norvegicus with 12 samples.

Results

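The transcripts compared here are those of rat hippocampal neurons silenced with tetrodotoxin (TTX) for 48 h and of neurons that received vehicle alone (CTL). The members are the 4 TTX and the 4 CTL arrays, chosen by their sample titles, 8 of the 12 arrays in the series, with all 41012 noncontrol probes. The other 4 arrays hold neurons given bicuculline (BC, 20 μM), a GABA-A receptor antagonist, and help to estimate the spread. Neurons of E18.5 embryos of the Sprague-Dawley strain were grown at high density and treated with TTX at 0.5 to 1 μM, or with vehicle, at 10 to 13 days in vitro. The labels name 0.1% DMSO as the vehicle, whereas the methods of the study name water, so a solvent present in CTL and absent from TTX cannot be told apart from TTX. No transgene or selection was used, and a culture pools the cells of the dissected hippocampus, so that a lower signal may come from fewer cells of a type or from less RNA per cell, which cannot be told apart. The study's methods count dishes of neurons and RNA samples as n, and no source used here states that these replicates came from separate dissections, so the p-values may rest on technical spread alone.

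Tetrodotoxin plugs the pore of voltage-gated Na+ channels, so that neurons stop firing action potentials and release transmitter only spontaneously. Firing brings Ca2+ into the neuron, and Ca2+ acts through kinases, through the phosphatase calcineurin and through factors such as CREB and MEF2 on a program of activity-dependent genes. Firing also sets most of the energy use of a neuron, because the ions that enter must be pumped out again. Changes in K+ channel, neuropeptide and GABA genes are left aside below, and what is described is the rest: metabolism, lipid synthesis, transcription factors, receptors, signaling enzymes, the matrix and glial genes.

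Neuronal markers were present at high levels. All 13 measured markers of neurons in general were well above background (the scanner software's test of a spot against its local background), and none was called. All 20 astrocyte markers and 14 of 18 markers of the oligodendrocyte lineage also passed it on every array of CTL or of TTX. So did 11 of 17 microglia and macrophage markers and 10 of 16 markers of vessels and fibroblasts. The microglial markers AIF1 and ITGAM and the endothelial markers PECAM1 and TEK passed it on none of these arrays. Per array, 74.1 to 78.1% of the probes were well above background, and the median processed signal was 105 to 148. Values are log2 signals after quantile normalization, and a difference is TTX minus CTL on that scale. A gene was called with limma at a false discovery rate (FDR) under 0.05 and a fold of at least 1.5 in either direction, and only called genes are said to rise or fall.

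More genes fell than rose with TTX. Of 35696 genes tested, 958 fell (2.68%) and 522 rose (1.46%), and among the 25821 genes measurable on every array of CTL or of TTX the shares were 3.44% and 1.84%. In either direction these are 4.15% and 5.28%, and by the FDR alone, without the fold, 5.34% of all genes were lower and 4.25% higher. The falls were larger: 386 of them and 131 of the rises reached 2-fold, and 54 and 11 reached 4-fold. The difference had the same sign on all 4 slides for 954 of the falls and 516 of the rises. The calls came from these same arrays, so that the signs are no separate check of them. The median difference over all genes was 0.01, and 53.8% of all genes, or 54.3% of those well above background, had a positive difference. The arrays were split into sets by slide, slides 1 and 3 against slides 2 and 4, and each set carries 2 arrays per group. The sample titles do not name these sets, which the residuals of the arrays follow. With those 2 arrays averaged and the slide set as a term, 258 genes fell and 79 rose by the same rule, and the named genes that kept their call under this averaging are listed with their group. The other calls named below were lost under it.

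**Figure D1:**
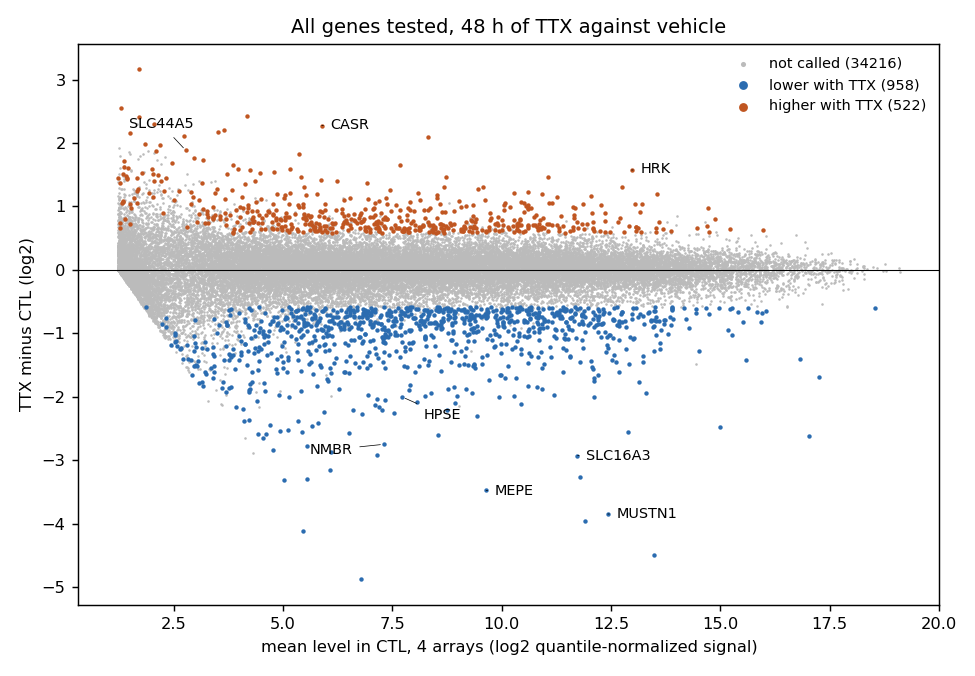
Difference between TTX and CTL (log2, y axis) against the mean level in CTL (log2 quantile-normalized signal, x axis) for the 35696 genes tested, 1 point per gene. Blue points are the 958 genes that fell and orange points the 522 that rose, and the falls reach further from 0 than the rises.

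Outside channels, peptides and GABA genes, the largest fall was that of MUSTN1, a small nuclear protein known from muscle and skeleton. Its level was 12.36, 12.15, 12.79 and 12.39 on the 4 CTL arrays and 8.70, 8.55, 8.36 and 8.70 on the 4 TTX arrays. The groups lay far apart, and the difference was −3.85 (SE 0.134, 4 against 4 arrays, adjusted p = 1.5e-07 by limma). MEPE, a secreted phosphoglycoprotein of bone and dentin matrix, was at 9.71, 9.22, 9.96 and 9.68 in CTL and at 6.33, 6.20, 6.02 and 6.12 in TTX, a difference of −3.47 (SE 0.178). NMBR, the receptor of neuromedin B, lay between 7.16 and 7.48 in CTL and between 4.42 and 4.89 in TTX (−2.75, SE 0.133). HTRA4, a secreted serine protease, differed by −2.61 (SE 0.358) and spread more in CTL, from 7.48 to 9.53, than in TTX, from 5.66 to 6.27. HHATL, a relative of the hedgehog acyltransferase, differed by −2.26 (SE 0.133). For genes that no TTX array measured above background only a lower bound on the fold can be given. By that bound F2RL2, a protease-activated receptor subunit, fell at least 3.38-fold, PTH2R, a receptor of the parathyroid hormone family, at least 2.55-fold, and ARR3, the arrestin of cone photoreceptors, at least 1.93-fold. TRIM54, a muscle ubiquitin ligase, PLVAP, a protein of endothelial diaphragms, and DEPP1, a target of FOXO factors, had differences of −2.87, −2.45 and −2.41 and fell, with 1 of 4 TTX arrays well above background in each case. Their sizes depend on the processing, and over 23 alternatives their smallest differences were −0.84, −0.64 and −0.61.

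The largest rises outside those families were smaller, and several came from genes near background. CASR, the Ca2+-sensing receptor, was at 6.15, 6.17, 5.61 and 5.63 in CTL and at 8.07, 8.40, 7.90 and 8.28 in TTX. Every TTX array was above every CTL array, with a difference of 2.27 (SE 0.168, limma adjusted p = 2.47e-05). HRK, a BH3-only protein that promotes neuronal apoptosis, rose from 12.77 to 13.13 in CTL to 14.45 to 14.59 in TTX (1.57, SE 0.0862), and a second probe of the gene gave 1.62. FABP2, a fatty acid-binding protein of the intestine, rose by 1.53 (SE 0.126), and ANGPT2, a ligand of the TIE2 receptor, by 1.52 (SE 0.237). Several rises began below the detection limit. UGT2B35, a glucuronosyltransferase, was at least 2.50-fold higher, OMD (osteomodulin) at least 2.29-fold, SLC44A5, a member of the choline transporter-like family, at least 2.20-fold, and SLCO6C1, an organic anion transporter, at least 1.77-fold. CXCL9, an interferon-induced chemokine, PKD2L2, a polycystin, and the orphan receptor GPR139 were well above background on 2, 3 and 3 of 4 CTL arrays and rose by 2.18, 2.20 and 1.59, and CXCL9 was not called without CTL replicate 3 (2.02, limma adjusted p = 0.0511). The rise of ASCL4, a bHLH factor, was 1.58 (SE 0.432, limma adjusted p = 0.0445), and its call was lost under 11 of 23 alternatives, among them the omission of any 1 array but CTL replicate 1. Of the genes named in these paragraphs, MUSTN1, MEPE, NMBR, HTRA4, PLVAP, HHATL, CASR, GPR139 and HRK kept their call with the slide sets averaged. With the median signal uncorrected for background, and with normexp correction, ARR3, PTH2R, UGT2B35, OMD, SLC44A5, SLCO6C1, GPR139 and ANGPT2 were no longer called.

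**Figure D2:**
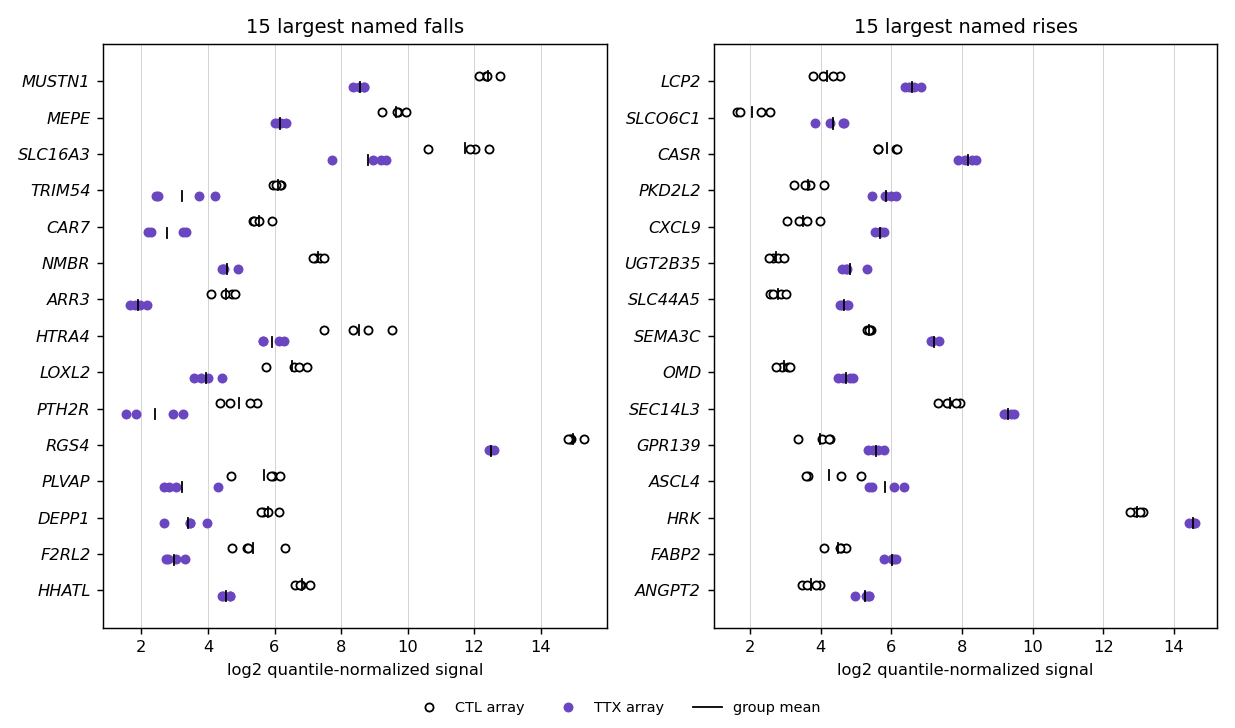
Level of each gene (log2 quantile-normalized signal, x axis) on the 4 CTL arrays (open circles) and the 4 TTX arrays (filled circles), for the 15 largest falls and the 15 largest rises outside ion channel, neuropeptide and GABA genes. Vertical ticks are group means, and CTL and TTX arrays do not overlap for any gene shown, as the choice of these genes required.

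Promoters were searched on both strands for the full cyclic AMP response element, the palindrome TGACGTCA to which CREB binds. Windows ran from 250 bases before to 50 bases after the annotated start (RefSeq, GRCr8), and 12409 tested genes had one. The element was found in 3.61% of the 416 windows of genes that fell, in 1.59% of the 189 windows of genes that rose and in 2.56% of all windows. Its shorter form TGACG, which the full element contains, was found in 28.1%, 18% and 27.5% of them. The E-box CACGTG was found in 8.17%, 8.47% and 8.26%, the inverted CCAAT box ATTGG in 33.9%, 39.7% and 38.8%, and the sterol element core CACCCCAC in 3.12%, 3.7% and 2.51%. These are descriptions of the letters in the windows, and no test was made. The 250 bases before the start are printed for named genes with the full element and large differences, with the element in capitals: VGF, a granin-like precursor that fell by 2.61, the receptor GPR6, the growth factor AREG, the antiproliferative gene BTG2 and the nitric oxide synthase NOS1, which rose by 0.86. In SST, which fell by 1.69, the element began just past the annotated start, and its window is not printed. VGF and SST kept their calls with the slide sets averaged. The windows lie at chr12:25277021-25277270, chr20:46075252-46075501, chr14:17265642-17265891, chr13:48087691-48087940 and chr12:44371838-44372087, all on the minus strand, and are given from 5′ to 3′. The element began 90 bases before the start in VGF, 93 in GPR6, 91 in AREG, 201 in BTG2 and 9 in NOS1.
VGF: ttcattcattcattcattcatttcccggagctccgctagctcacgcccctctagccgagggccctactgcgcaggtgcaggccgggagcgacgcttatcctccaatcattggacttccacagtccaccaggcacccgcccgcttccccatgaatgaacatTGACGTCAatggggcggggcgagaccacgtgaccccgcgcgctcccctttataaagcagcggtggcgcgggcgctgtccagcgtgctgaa
GPR6: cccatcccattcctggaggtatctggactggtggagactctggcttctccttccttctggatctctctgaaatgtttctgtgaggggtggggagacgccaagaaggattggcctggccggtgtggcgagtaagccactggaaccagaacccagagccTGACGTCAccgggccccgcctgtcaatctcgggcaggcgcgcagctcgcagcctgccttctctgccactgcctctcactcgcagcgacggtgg
AREG: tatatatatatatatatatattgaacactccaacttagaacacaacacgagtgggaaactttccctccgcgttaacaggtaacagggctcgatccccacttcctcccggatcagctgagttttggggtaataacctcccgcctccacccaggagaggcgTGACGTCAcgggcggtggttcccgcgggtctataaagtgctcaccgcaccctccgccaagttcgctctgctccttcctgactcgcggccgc
BTG2: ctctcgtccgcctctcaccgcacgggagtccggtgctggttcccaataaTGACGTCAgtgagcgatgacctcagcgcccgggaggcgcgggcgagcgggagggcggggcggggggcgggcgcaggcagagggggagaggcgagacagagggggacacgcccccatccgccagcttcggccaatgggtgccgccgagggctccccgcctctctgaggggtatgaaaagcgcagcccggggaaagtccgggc
NOS1: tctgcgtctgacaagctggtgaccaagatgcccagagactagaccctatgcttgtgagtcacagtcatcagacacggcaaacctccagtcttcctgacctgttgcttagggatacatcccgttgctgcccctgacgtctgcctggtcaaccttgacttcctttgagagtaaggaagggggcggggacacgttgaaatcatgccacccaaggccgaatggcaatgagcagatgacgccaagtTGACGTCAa

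Genes of cholesterol synthesis had small negative differences, and 1 of them fell. Cholesterol is made from acetyl-CoA through mevalonate, squalene and lanosterol, under SREBP2, which also drives uptake of lipoproteins. Of 20 genes of sterol synthesis, 19 had a negative difference, with a median of −0.34 beside 0.01 over all genes. 11 of them passed the FDR alone, without the fold threshold, which 5.34% of all genes did in that direction, and only TM7SF2, a sterol reductase, fell by the full rule (−0.62, SE 0.0762). It stayed under the fold without CTL replicate 2 (−0.57) and with 75th percentile scaling (−0.58). HMGCS1, which makes HMG-CoA, had −0.06. The median member lay between −0.06 and 0.03 relative to its CTL mean on the CTL arrays, and between −0.47 and −0.30 on the TTX arrays, so that all 4 TTX arrays were lower. SREBF2 itself had −0.01. INSIG1, which retains SREBP in the endoplasmic reticulum and is itself sterol-regulated, had −0.36 (SE 0.0566, limma adjusted p = 0.00243), under the fold. The clearest fall in this pathway was that of STARD4, a soluble carrier of cholesterol between membranes. It was at 9.91, 9.74, 10.03 and 9.73 in CTL and at 8.62, 8.61, 8.56 and 8.83 in TTX, a difference of −1.20 (SE 0.0841, limma adjusted p = 1.96e-05).

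Other steps of lipid handling changed in single genes. Of 24 genes of fatty acid synthesis and desaturation, ACSS2, which makes acetyl-CoA from acetate, fell (−0.84, SE 0.161), while FASN had −0.14 and ACACA 0.18. Of the lipid exporters, ABCA1, which loads cholesterol onto apolipoproteins, rose by 0.82 (SE 0.161), and its relative ABCA7 fell by 0.91 (SE 0.0766). The lipoprotein receptor VLDLR fell by 0.64, a value under the fold without CTL replicate 3 (−0.57), and APOE had 0.25 (limma adjusted p = 0.401). The phosphatidate phosphatase LPIN3 fell by 0.94 (SE 0.128) and the ganglioside sialyltransferase ST8SIA5 by 1.02 (SE 0.145), 2 of 38 genes of phospholipid and sphingolipid synthesis. Of 18 genes of fatty acid oxidation none was called and 13 had a positive difference, as did 54.3% of all genes well above background. CPT1A, the carnitine transferase that admits fatty acids to the mitochondrion, had 0.57 (SE 0.154), just under the fold. Of these lipid genes, STARD4 kept its call with the slide sets averaged.

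Several genes of glucose use fell, from uptake to lactate export. Neurons and glia take up glucose through GLUT transporters, split it in glycolysis, and either export the product as lactate or burn it in mitochondria. The glucose transporter SLC2A1 was at 12.69, 12.59, 12.69 and 11.95 in CTL and at 11.71, 11.72, 11.09 and 11.27 in TTX (−1.03, SE 0.197). HK2, the inducible hexokinase, was at 6.56, 6.84, 6.53 and 5.22 in CTL and at 4.76, 4.70, 3.88 and 4.31 in TTX (−1.87, SE 0.326, and −0.84 at the smallest over 23 alternatives). SLC16A3, the lactate exporter of glycolytic cells, was at 12.02, 11.86, 12.46 and 10.60 in CTL and at 9.21, 9.36, 7.73 and 8.95 in TTX (−2.92, SE 0.434). In each of these, CTL replicate 4 was the lowest CTL array and still lay above all TTX arrays. PDK1, a kinase that inhibits pyruvate dehydrogenase, fell by 1.07 (SE 0.1, limma adjusted p = 0.000118), and PYGL, a glycogen phosphorylase, by 1.34 (SE 0.178). With the slide sets averaged only PDK1 of the genes named here kept its call, whereas SLC2A1 (limma adjusted p = 0.0539), HK2 (0.0622), SLC16A3 (0.0523) and PYGL (0.0597) lost theirs. Of 20 genes of glycolysis, 18 had a negative difference with a median of −0.27, 11 passed the FDR alone and HK2 and PGK1 fell by the full rule, which 2.68% of all genes did. PGK1 (−0.64) was under the fold without CTL replicate 2 (−0.57). The abundant enzymes had smaller values and were not called: LDHA had −0.57 (SE 0.0908, limma adjusted p = 0.00287), TPI1 −0.51, PGAM1 −0.30, ALDOA −0.27, GAPDH −0.26 and ENO1 −0.21. HK1, the housekeeping hexokinase of brain, had −0.05, and SLC2A3, the neuronal glucose transporter, had −0.23 (limma adjusted p = 0.426).

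Many genes that fell here are known targets of the hypoxia-inducible factors (HIFs), which switch cells to glycolysis when oxygen is short. A list of 43 such targets was put together after these values were seen, so that its counts are a description. Of the 42 measured, 16 fell (2.68% of all genes did) and 1 rose, and 37 of the 41 well above background had a negative difference, with a median of −0.51. P4HA2, a collagen prolyl hydroxylase, was at 13.54, 13.46, 13.98 and 13.50 in CTL and between 12.35 and 12.41 in TTX (−1.25, SE 0.116). ANKRD37 fell by 1.26 (SE 0.184), EGLN3, an oxygen-sensing prolyl hydroxylase, by 1.09 (SE 0.122), the mitophagy receptor BNIP3 by 0.92 (SE 0.0822), the disulfide oxidase ERO1A by 0.68 and the angiogenic factor VEGFA by 0.67. LOXL2, a collagen cross-linking oxidase, was at 6.59, 6.73, 6.98 and 5.75 in CTL and at 4.00, 4.42, 3.79 and 3.57 in TTX (−2.57, SE 0.289). ADM (adrenomedullin) fell by 1.53 (SE 0.325) and was not called when the BC arrays were left out of the fit (limma adjusted p = 0.0513). AK4, a mitochondrial adenylate kinase, was the member that rose (0.59, SE 0.0884, not called without CTL replicate 3 or 4 or TTX replicate 1 or 2), and CAR9, a carbonic anhydrase widely used as a sign of hypoxia, had 0.06. The messenger of HIF1A itself had −0.02 and that of EPAS1 0.43 (limma adjusted p = 0.178). The median of the list relative to the CTL means was −0.24 on CTL replicate 4, between 0.05 and 0.12 on the other CTL arrays, and between −0.60 and −0.38 on the TTX arrays. VEGFA was under the fold without TTX replicate 4 (−0.58), and BHLHE40 (−0.59), a clock repressor in the list, was not called under 11 of 23 alternatives, the omission of CTL replicate 1, 2 or 3 or TTX replicate 3 or 4 among them. BNIP3, ERO1A, LOXL2, P4HA2 and PDK1 kept their calls with the slide sets averaged.

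**Figure D3:**
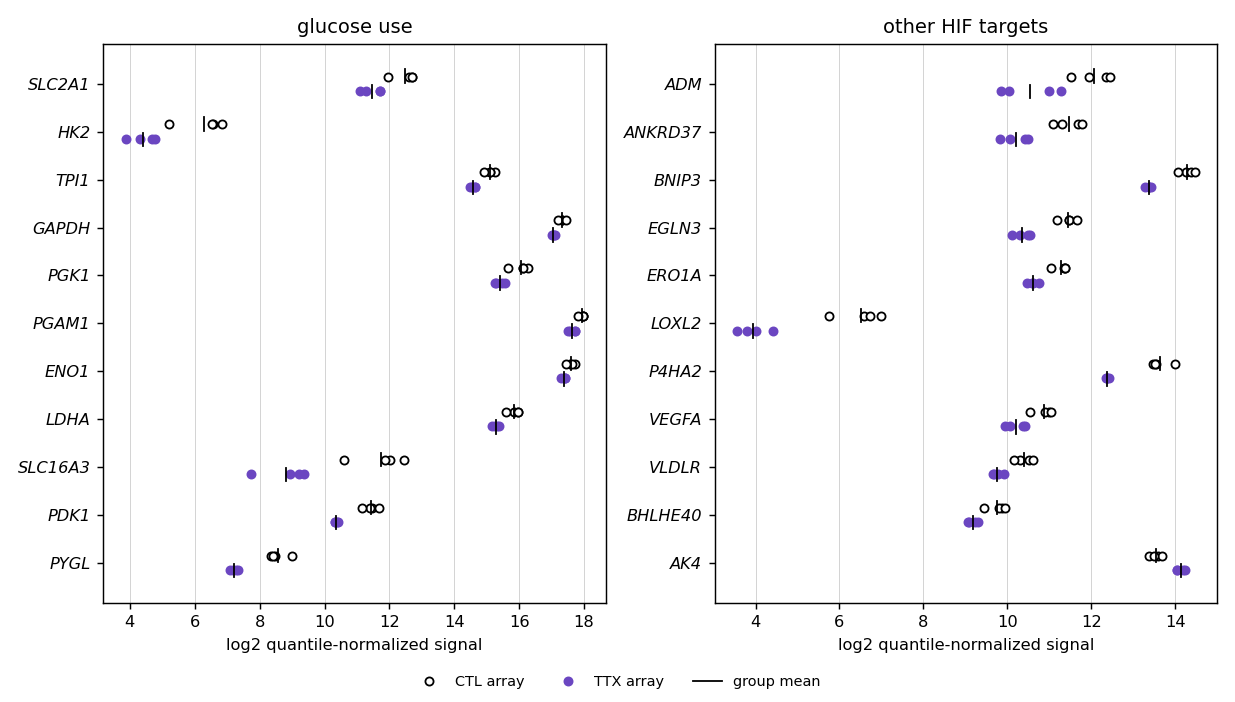
Level (log2 quantile-normalized signal, x axis) of genes of glucose use (left) and of other hypoxia-inducible factor targets (right) on the 4 CTL arrays (open circles) and the 4 TTX arrays (filled circles), with group means as vertical ticks. All TTX arrays lie below all CTL arrays for every gene shown except AK4, for which they lie above. The genes shown were picked, and others of these groups, such as ALDOA, overlap. CTL and TTX arrays do not overlap for 15.5% of all genes tested and for 20.5% of those well above background.

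Mitochondrial and proteostasis genes showed little change beside these. None of 61 subunits of the respiratory chain was called (1 passed the FDR alone), with a median of −0.05, and none of 36 proteasome subunits or 20 cytosolic heat shock genes was. At an unadjusted p under 0.05 by limma, 6, 4 and 6 of them passed, respectively, as did 7669 of all 35696 genes. The endoplasmic reticulum chaperone HSPA5 had 0.01, and of the 28 genes of endoplasmic reticulum stress only ERO1A was called. MCUB, the subunit that dampens the mitochondrial Ca2+ uniporter, rose from 9.88 to 10.14 in CTL to 11.09 to 11.14 in TTX (1.06, SE 0.0887). Of 31 antioxidant and glutathione genes 3 rose, as did 1.46% of all genes: the heme oxygenase HMOX1 by 0.87 (SE 0.164), the glutathione transferase MGST1 by 0.72 (SE 0.0933) and the quinone reductase NQO1 by 0.61 (SE 0.0945, not called without CTL replicate 3 or TTX replicate 2). Of these MGST1 kept its call with the slide sets averaged, and HMOX1 was lost under the replicate block with only CTL and TTX arrays.

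**Figure D4:**
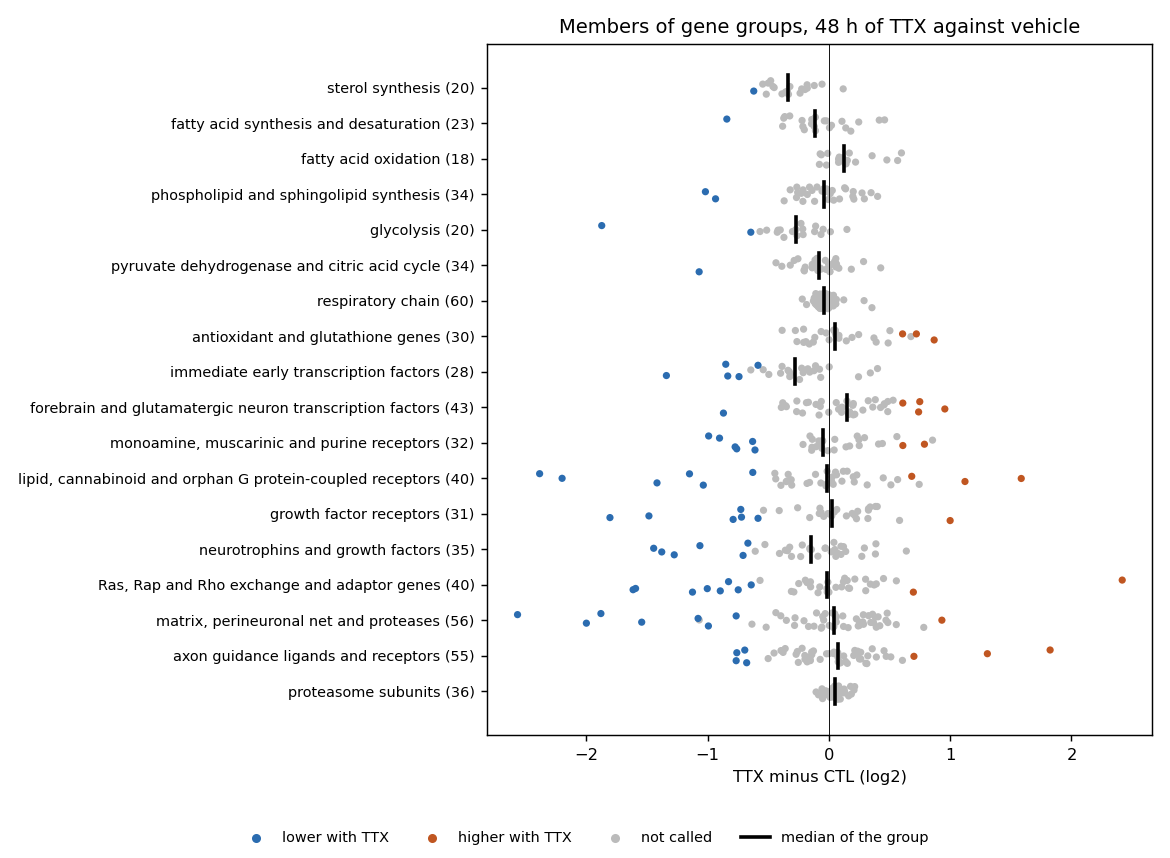
Difference between TTX and CTL (log2, x axis) of the members of 18 gene groups measurable on every CTL or every TTX array, 1 point per gene, with their number in parentheses. Black ticks mark the median of the group. Sterol synthesis, glycolysis and immediate early factors lie left of 0 as groups, respiratory chain and proteasome subunits cluster at 0, and receptors, growth factors and matrix genes hold single large falls and rises.

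Some transcription factors of the activity-dependent program fell, and several of its best known members were not called. Immediate early factors are switched on within minutes of Ca2+ entry. Of 28 measured, 24 had a negative difference (median −0.28) and 5 fell, beside 2.68% of all genes. With the slide sets averaged none of these 5 was called, nor any of the 3 calcium-responsive regulators named below, and NR4A1 had a limma adjusted p of 0.0563. The orphan nuclear receptor NR4A1 was at 12.60, 12.37, 13.07 and 12.20 in CTL and at 11.27, 11.30, 11.10 and 11.20 in TTX, a difference of −1.34 (SE 0.164, limma adjusted p = 0.000601). NR4A2 fell by 0.74 (SE 0.124) and the bZIP repressor NFIL3 by 0.85 (SE 0.145). The calls of NPAS4 (−0.83) and KLF2 (−0.58) were lost under 12 and 9 of 23 alternatives, among them the omission of CTL replicate 1 or 3 or TTX replicate 3 for both, of TTX replicate 1 for NPAS4 and of TTX replicate 4 for KLF2. FOS had −0.54 (SE 0.152, limma adjusted p = 0.0499), JUNB −0.33 and EGR1 −0.40 (limma adjusted p = 0.130), and none of these was called. Of the calcium-responsive regulators, the zinc finger factor HIVEP1 fell by 1.1 (SE 0.124, not called as the mean of its probes), the calcineurin regulator RCAN2 by 1.04 (SE 0.138) and KCNIP3, also known as the repressor DREAM, by 0.83 (SE 0.0959), while CREB1 had 0.37.

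Some factors of forebrain excitatory neurons rose. Of 44 measured, 4 rose and 1 fell, against 1.46% and 2.68% of all genes. NEUROD2, a bHLH factor of maturing excitatory neurons, was at 13.66, 13.75, 13.32 and 13.66 in CTL and at 14.44, 14.47, 14.28 and 14.20 in TTX (0.75, SE 0.102). ZBTB20, which specifies CA1 pyramidal neurons, rose by 0.96 (SE 0.184), BCL11A by 0.74 (SE 0.0985) and NFIB by 0.61 (SE 0.0777). For NFIB the spot of CTL replicate 3 was dropped as an outlier, and the value was under the fold without CTL replicate 1 (0.54) or TTX replicate 4 (0.57). ID1, an inhibitor of bHLH factors, was not measured above background in TTX and was at least 1.50-fold lower, and its call was lost under 8 of 23 alternatives, the omission of CTL replicate 2 or 3 among them. Of the regulators of chromatin, HDAC5, a histone deacetylase that shuttles out of the nucleus with activity, was at 13.93, 13.90, 13.72 and 13.60 in CTL and at 12.91, 12.96, 12.58 and 12.68 in TTX (−1.01, SE 0.125), and its other probes gave −1.13 and −1.05. It was the 1 called gene of 24. Among nuclear receptors the thyroid hormone receptor THRB fell by 0.68 (SE 0.0657), but the mean of its probes had −0.15 and was not called. Among clock genes TEF, a PAR bZIP activator, rose by 0.65 (SE 0.0905) while the competing repressor NFIL3 fell, and PER1, NR1D1 and DBP had −0.16, −0.10 and −0.19. ZBTB20 and HDAC5 kept their calls with the slide sets averaged.

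Receptors for diffusible signals held falls and rises. Of 43 monoamine, muscarinic and purine receptors 6 fell and 2 rose, of 48 lipid, cannabinoid and orphan receptors 7 fell and 3 rose, and of 55 receptors of peptides and hormones 8 fell and 4 rose, with medians of −0.08, −0.02 and −0.03. Of all genes 2.68% fell and 1.46% rose, so that falls outnumbered rises there too, at 64.7% of all calls. The constitutively active orphan receptor GPR6, whose promoter is shown above, was at 7.06, 7.35, 7.62 and 6.99 in CTL and at 5.32, 4.87, 5.03 and 5.00 in TTX (−2.20, SE 0.148, limma adjusted p = 1.51e-05). Its close relative GPR3 had 0.03. CCKBR, the cholecystokinin receptor of brain, lay between 9.13 and 9.55 in CTL and between 7.17 and 7.59 in TTX (−1.95, SE 0.16), whereas CCKAR rose by 0.87 (SE 0.145). CRHR1, the receptor of corticotropin-releasing hormone, fell by 1.37 (SE 0.114), with −1.34 on a second probe. The prostaglandin receptor PTGER3 fell by 1.15 (SE 0.158), GPR176 by 1.04 (SE 0.181), the adrenergic receptor ADRA1D by 0.99 (SE 0.153), and the somatostatin receptors SSTR1 and SSTR3 by 0.95 and 0.77, while SSTR2 had 0.55. RAMP1, an accessory subunit of the CGRP receptor, fell by 0.96 (SE 0.111). HRH3, the histamine autoreceptor, rose from 9.78 to 10.20 in CTL to 10.75 to 10.86 in TTX (0.79, SE 0.0938), and the nociceptin receptor OPRL1 rose by 0.71 (SE 0.136). The lysophosphatidate receptor LPAR3 rose by 1.12. CNR1, the cannabinoid receptor, had 0.02 and the adenosine receptor ADORA1 0.25. GPR6, PTGER3, GPR139, LPAR3, CRHR1 and CASR kept their calls with the slide sets averaged, and those of HTR2C, HTR5A, P2RY1 and ADCYAP1R1 were each lost under 13 or 14 of 23 alternatives, the omission of CTL replicate 3 or TTX replicate 3 among them.

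The neurotrophin BDNF and the common neurotrophin receptor NGFR fell. BDNF was at 11.63, 11.87, 12.15 and 11.53 in CTL and at 10.41, 10.36, 10.16 and 10.48 in TTX (−1.45, SE 0.133, limma adjusted p = 0.000104), and all TTX arrays lay below all CTL arrays. NGFR was at 7.97, 7.83, 8.54 and 7.30 in CTL and between 6.05 and 6.17 in TTX (−1.81, SE 0.208). NTRK2, the BDNF receptor, had −0.16 (limma adjusted p = 0.204). The GDNF family ligand NRTN (neurturin) fell by 1.06 (SE 0.128) while its receptor GFRA2 rose from 10.39 to 10.65 in CTL to 11.50 to 11.59 in TTX (1.00, SE 0.0636, limma adjusted p = 1.01e-05). AREG, a ligand of the EGF receptor, fell by 1.28 (SE 0.179). In all, 6 of 46 growth factors fell and none rose, and 6 of 37 growth factor receptors fell and 1 rose. Beside them, 2.68% of all genes fell and 1.46% rose. An unadjusted p under 0.05 by limma was found for 18 of the growth factors and for 7669 of all 35696 genes. Of secreted antagonists, GREM1, which blocks BMPs, fell by 1.36 (SE 0.108) and FST, which blocks activin, rose by 0.65 (SE 0.138), with INHA, an inhibin subunit, at −0.96 (SE 0.132). WNT4 rose by 0.75 (SE 0.13) and WNT5B fell by 0.87 (SE 0.0897). BDNF, NRTN, AREG, NGFR, GFRA2 and WNT5B kept their calls with the slide sets averaged.

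Inside the cell, genes that couple receptors and Ca2+ to cyclic nucleotides, Ras and kinases fell in several cases and rose in others. ADCY8, a Ca2+-stimulated adenylyl cyclase, was at 12.24, 11.96, 12.28 and 12.00 in CTL and at 10.55, 10.39, 10.25 and 10.30 in TTX (−1.75, SE 0.122, limma adjusted p = 1.87e-05), while ADCY1, its Ca2+-stimulated relative, had −0.54. Both subunits of soluble guanylyl cyclase, the receptor of nitric oxide, fell, GUCY1A1 by 1.04 (SE 0.112) and GUCY1B1 by 0.80 (SE 0.0874), and the neuronal nitric oxide synthase NOS1 rose by 0.86 (SE 0.121). PDE1A, a Ca2+-activated phosphodiesterase, rose from 10.13 to 10.39 in CTL to 11.27 to 11.76 in TTX (1.21, SE 0.101). CAMK4, a nuclear Ca2+-dependent kinase that acts on CREB, lay between 9.83 and 10.24 in CTL and between 8.91 and 8.97 in TTX (−1.17, SE 0.0845), and CAMK2A had 0.26 (limma adjusted p = 0.475). Of 43 exchange factors and adaptors of the Ras family, 8 fell and 2 rose, against 2.68% and 1.46% of all genes. RASL11A, a small GTPase, was at 11.25, 11.28, 11.62 and 11.42 in CTL and at 9.70, 9.83, 9.77 and 9.80 in TTX (−1.61, SE 0.0876), the exchange factor RASGRP1 fell by 1.59 (SE 0.184), and REM2, an inhibitor of Ca2+ channels, by 1.00 (SE 0.154). RGS2, a brake on Gq signaling, fell by 1.27 (SE 0.0727). The phosphatase DUSP1, which switches off MAP kinases, fell by 0.76 (SE 0.133), its relative DUSP6 had −0.04, and the growth suppressor BTG2 fell by 0.89 (SE 0.105). ADCY8, both cyclase subunits, PDE1A, CAMK4, RASL11A, RGS2 and BTG2 kept their calls with the slide sets averaged.

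Genes of the matrix and of contact between cells held large single falls. Of 64 matrix and protease genes 9 fell and 1 rose (2.68% and 1.46% of all genes did), although the median was 0.02. HPSE, the heparanase that trims heparan sulfate, was at 7.70, 7.66, 8.15 and 7.36 in CTL and at 5.65, 5.67, 5.71 and 5.85 in TTX (−2.0, SE 0.163, limma adjusted p = 4.65e-05). COL6A1, a collagen chain, fell by 1.88 (SE 0.193), and HAPLN1, the link protein of perineuronal nets, by 1.54 (SE 0.249), while aggrecan (ACAN) had −0.40 (limma adjusted p = 0.118). The gelatinase MMP2 rose by 0.93 (SE 0.176), but another probe of the gene gave 0.19, and the mean of the probes was under the fold (0.56). Beside the same shares over all genes, 5 of 72 adhesion genes fell and 1 rose. CNTNAP4, a neurexin relative of interneurons, fell by 1.36 (SE 0.117), the glycoprotein THY1 by 0.81 (SE 0.101) and the synaptic organizer CBLN2 by 0.85 (SE 0.159). Of 60 axon guidance genes 5 fell and 3 rose, again beside 2.68% and 1.46%. The ephrin ligand EFNA4 rose by 1.31 (SE 0.176) and the receptor EPHB1 by 0.70 (SE 0.0648), while PLXND1, a semaphorin receptor, fell by 0.69 (SE 0.105). Of the cytoskeleton, DPYSL3, which binds microtubules in growing axons, rose by 0.74 (SE 0.114), and the heavy neurofilament NEFH, a mark of mature axons, fell by 0.92 (SE 0.163), with peripherin (PRPH) at −0.69 (SE 0.0825). DCX, a microtubule protein of young neurons, rose by 0.59 (SE 0.0622), a call lost under 7 of 23 alternatives, the omission of CTL replicate 3 or 4 or TTX replicate 4 among them. HPSE, LOXL2, CNTNAP4, CBLN2 and NEFH kept their calls with the slide sets averaged.

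Glial genes rose in a few cases, and most glial markers had a positive difference. Of 20 astrocyte markers 15 had one (median 0.18), as had 10 of 14 measurable oligodendrocyte markers (median 0.16) and 54.3% of all genes well above background. Relative to the CTL means, the median astrocyte marker ran from −0.27 to 0.18 on CTL arrays and from −0.14 to 0.35 on TTX arrays. The median oligodendrocyte marker ran from −0.09 to 0.13 and from 0.10 to 0.35. BCAS1, a gene of early myelinating oligodendrocytes, was at 8.60, 8.65, 8.25 and 8.85 in CTL and at 9.55, 9.62, 9.75 and 9.60 in TTX (1.04, SE 0.113). It kept its call with the slide sets averaged. Of 18 measured lineage markers 2 rose and 1 fell, beside 1.46% and 2.68% of all genes. Of the defining genes, MBP had 0.06 (SE 0.106) and OLIG2 0.30 (limma adjusted p = 0.329), and PDGFRA, the receptor of oligodendrocyte precursors, fell by 0.79 (SE 0.167), a call lost under 6 of 23 alternatives. ERMN and OPALIN, of mature oligodendrocytes, were not well above background on any of these arrays. The summed signal of the 14 lineage markers ran from 33059 to 52362 in CTL and from 45218 to 72022 in TTX. Of 20 astrocyte markers, FABP7, the fatty acid-binding protein of radial glia and young astrocytes, rose from 15.86 to 16.14 in CTL to 16.45 to 16.69 in TTX (0.63, SE 0.0827), and SLC25A18 rose by 0.72, a call lost under 12 of 23 alternatives, among them the omission of any 1 array but CTL replicate 1 and TTX replicate 4. GFAP had −0.00 (SE 0.163), AQP4 0.07, GJA1 0.39 and SLC1A3 0.27, none of them called, and the summed signal of the astrocyte markers overlapped, from 390667 to 521815 in CTL and from 437351 to 604472 in TTX.

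**Figure D5:**
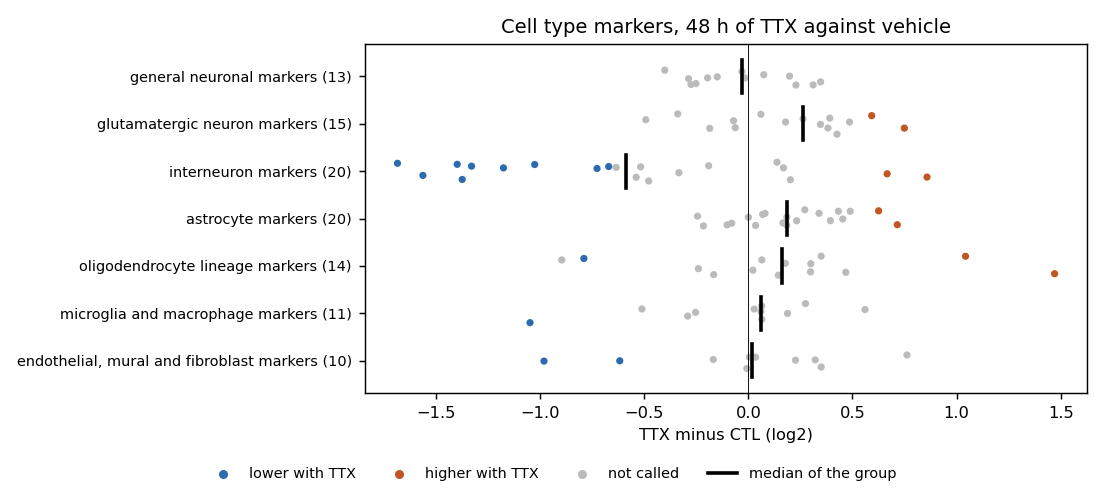
Difference between TTX and CTL (log2, x axis) of cell type markers measurable on every CTL or every TTX array, 1 point per gene, with the number of markers in parentheses and the median as a black tick. Interneuron markers lie left of 0 with a median of −0.59, general neuronal markers lie around 0, and BCAS1 (1.04) stands right of most oligodendrocyte markers.

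Interneuron markers were lower beside these genes. Of 20 interneuron markers 9 fell and 2 rose, where 2.68% and 1.46% of all genes did, and their summed signal dropped from 403158 to 458334 in CTL to 212261 to 233379 in TTX, with no overlap. CNTNAP4, ERBB4 (−0.73) and SSTR1 are known from interneurons, and the part of the interneuron markers' fall in theirs was not tested. Of 15 markers of glutamatergic neurons 9 had an unadjusted p under 0.05 by limma, as did 7669 of all 35696 genes. By the full rule 2 rose (1.46% of all genes did) and none fell. These were NEUROD2 and SLC17A6 (0.59), the latter a call lost under 8 of 23 alternatives, the omission of CTL replicate 1 or 4 or TTX replicate 3 or 4 among them, and SLC17A7 had 0.18 (limma adjusted p = 0.694). Of the markers of vessels and fibroblasts LUM and DCN, small proteoglycans of connective tissue, fell by 0.98 (SE 0.0975) and 0.62 (SE 0.0901), DCN being under the fold without TTX replicate 4 (−0.58), and COL1A1 had 0.03. Of the 16 measured genes of this list 3 fell and none rose, beside 2.68% and 1.46% of all genes. Its 10 measurable members had a median difference of 0.02, with 6 positive and 4 negative, so the list did not fall as a group. Their summed signal, in which the brightest genes weigh most, was 8760 to 10330 in CTL and 6279 to 6924 in TTX. Of 17 measured microglia and macrophage markers 1 fell and none rose, beside the same shares over all genes. It was the lysozyme gene LYZ2, which fell by 1.05 (SE 0.163). The 11 measurable members had a median difference of 0.06, with 7 positive and 4 negative, so this list did not fall as a group either. AIF1 and C1QA were at most on 1 TTX array well above background. The part of these cells in the falls of matrix genes was not tested. LUM kept its call with the slide sets averaged. Of 49 cytokine and interferon genes 4 rose and 1 fell, beside 1.46% and 2.68% of all genes, among them the interferon-induced IFIT1 (0.70, SE 0.103), whose mean over probes was not called (0.44).

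Blocking GABA-A receptors with BC induced burst firing soon after it was applied in the study. The paper speculates that at high density this block may not raise network activity enough for neurons to adjust their excitability. The BC values of the same genes are set side by side here, as both comparisons share the CTL arrays. The difference of BC from CTL was 1.50 for MUSTN1, 1.60 for MEPE, 0.90 for NMBR, 3.10 for HPSE, 1.95 for NGFR, 1.09 for BDNF, 0.87 for NR4A1 and 0.81 for HDAC5, all of which fell with TTX. It was −1.29 for CASR, −1.45 for GPR139, −0.93 for HRK, −1.97 for MCUB, −0.72 for NEUROD2 and −0.67 for GFRA2, all of which rose with TTX. For the genes of glucose use the BC values were within 1.5-fold: −0.38 for SLC16A3 (limma adjusted p = 0.762), −0.38 for HK2, −0.05 for SLC2A1, −0.08 for PDK1, −0.15 for PYGL and −0.13 for P4HA2. So were those of STARD4 (0.39), GPR6 (−0.03), CRHR1 (−0.12) and BCAS1 (0.19). ADRA1D and COL6A1, which fell with TTX, had −1.17 and −0.77 in BC.

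The remaining groups are given by their counts, to be read beside the 2.68% of all genes that fell and the 1.46% that rose. Of 44 lysosome and autophagy genes 2 rose, of 32 cell cycle genes 1 rose, of 25 metal genes 2 fell, and of 30 targets of p53 and genes of apoptosis 2 fell and 1 rose. Of 47 genes of TGF-beta signaling and 44 of Wnt, Notch and hedgehog signaling, 2 rose and 2 fell in each, and of 12 carbonic anhydrases 2 fell and 1 rose. No gene was called among 27 of serine and amino acid synthesis and 23 amino acid transporters. An unadjusted p under 0.05 by limma was found for 9 and 6 of them, and for 7669 of all 35696 genes.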

How the data were processed

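Total RNA of 12 samples (4 CTL, 4 TTX and 4 BC) was labelled with Cy3 and hybridised to 1-colour Agilent whole rat genome arrays, 4 slides with 1 array of each group. The authors deposited the scanner output of Feature Extraction 9.5.1.1, whose processed intensity is background-subtracted, and a table of log2 values deposited per array, used here only as an alternative. Here the processed intensity was log2-transformed and quantile-normalized across all 12 arrays, control and outlier spots were left out, and each gene was represented by 1 probe. Groups were compared with limma 3.58.1 (R 4.3.3) in 1 fit over the 3 groups, with Benjamini-Hochberg adjustment over 35696 genes. Calls needed an FDR under 0.05 and a fold of at least 1.5 in either direction. Of 41012 probes, 11115 were named by accession, 5061 by symbol and 3403 by synonym in the reference, and 21433 kept the name in the files. Where no array of a group measured a gene above background, the fold is a lower bound against the lowest signal well above background. Named genes were the 15 largest falls and rises outside the excluded families, up to 4 called members of each list and anchor genes of each list. The members and lists were chosen with earlier results of these data known, and the list of hypoxia-inducible factor targets after the values were seen. The number of arrays limits the precision. The script was tested on simulated data. Some genes counted in the lists are not reported here by name.

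Replicate numbers were checked as pairs. The residuals of TTX and CTL arrays of the same number correlated at 0.28 to 0.38, which follows the slide sets, since arrays of the same set correlated at 0.28 to 0.41 and arrays of different sets at −0.39 to −0.29. The replicate block was therefore fitted as an alternative, with other background corrections, scalings, probe rules, slide blocks and omissions of single arrays. The sample titles do not name the slide sets, and the correlations above describe that split without testing it.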

Additional observations from a re-analysis of the deposited data

Results flagged for a closer look

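Among 353 groups of 4 arrays of the named genes, 17 held 1 array whose gap to the nearest of the others was above the limit of Dixon's test. Chance gives such a gap in about 1 of 20 independent groups, and 17 is near that rate. These groups share the same arrays and are not independent, so the total cannot tell whether 1 array stands apart. Of the 17, 7 were low values on CTL replicate 4: ERO1A (11.04), LUM (12.07), NRTN (12.04), PGAM1 (17.81), PRPH (11.53), REM2 (9.60) and SLC2A1 (11.95). AIF1, which was not well above background, was high on the same array (1.55). CTL replicate 3 stood low for CAMK2A (11.62) and MCUB (9.88) and high for P4HA2 (13.98), RASGRP1 (5.98) and VGF (17.37). ID1 was low on CTL replicate 1 (3.93). Of the TTX arrays, replicate 1 was high for NMBR (4.89), and replicate 3 was high for DUSP6 (12.93) and low for ZBTB20 (11.14).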

How the results depend on the processing

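Most settings kept the counts of 958 falls and 522 rises within 1.5 times. The exceptions were normexp background correction (547 and 237), the median signal with no background correction (580 and 252), the deposited log2 values (577 and 248), averaging of the arrays of a slide set (258 and 79), no fold threshold (1907 and 1518) and a fold of at least 2 (386 and 131). An alternative chosen after seeing the data, with each group and slide set combination as a random block, gave 308 rises. The cause of these shifts was not tested, except that the fold thresholds act by construction. Leaving out 1 array gave 815 to 1044 falls and 379 to 660 rises. With the replicate block 831 genes fell and 429 rose, and with only the CTL and TTX arrays (added after seeing the data) 896 and 479. Falls made up 64.7% of the calls, 76.6% with the slide sets averaged. Of the 195 called genes among those chosen for naming, 59 kept their call with averaging, 141 with normexp, 147 with the median signal, 178 with the replicate block and 169 to 184 with 1 array left out, and none was reversed under any alternative. Genes near background depend on how background is handled, and 67 falls and 28 rises have only a bound on one side.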
